A study of Homo sapiens with 39 samples.

Results

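The comparison was between HCT116 cells that produce isoform 3 of hepatocyte nuclear factor 4 alpha (HNF4A) and the parental cells without a construct. It used 6 of the 39 RNA-seq libraries of the study, 3 of the isoform 3 line and 3 of the parental cells, chosen by their labels alone. HCT116 is a human colorectal cancer line, and the host carries the Flp-In T-REx system, in which an inserted gene is switched on by doxycycline. The isoform 3 group was 1 stable line with HNF4A isoform 3 fused to GFP (HNF4alpha3-GFP), and the parental group was labelled Empty Control. All 6 cultures received 2.5 µg/ml doxycycline for 48 h, so the inducer was shared by both groups. Before induction the parental cells were kept in 5 µg/ml blasticidin and 100 µg/ml zeocin, and the line in 5 µg/ml blasticidin and 100 µg/ml hygromycin B. No group produced GFP alone and the line is a single line, so isoform 3, GFP, the earlier antibiotic and the derivation of the line cannot be told apart as sources of a difference. The labels do not say that replicates were separate cultures, so p-values measure the spread between libraries. That spread was estimated from all 39 libraries in 13 groups together, not from these 6 alone.

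HNF4A is a nuclear receptor that binds DNA as a homodimer and switches on genes of lipid, sugar and drug metabolism in liver and genes of absorptive cells in gut. The gene has a pair of promoters and several splice forms. Isoform 3, as the standard nomenclature defines it, starts at the P1 promoter and so keeps the N-terminal activation function, but ends in a shortened and different C-terminus. Isoform 1 has the same N-terminus with the full C-terminus, isoform 6 the short C-terminus with an extra exon near the N-terminus, and isoform 9 the short C-terminus with the N-terminus of the P2 promoter.

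Values are TPM, transcript abundance per length scaled to a fixed sum in each library, so the depth of each library is unknown. The 6 libraries had between 28488 and 30549 genes above 0 TPM. The cells carried the epithelial markers of their origin: EPCAM, CDH1, KRT8, KRT18, KRT19 and CLDN7 were all measured, and their summed level was 3185 to 3311 TPM in the parental libraries and 3517 to 3583 TPM in those of isoform 3. Of these 6 markers 3 were higher in isoform 3 by adjusted p, with changes of at most 0.37 on the log2 scale. Among all 15002 genes tested below, 11.2% were higher by the same measure. Summed markers of fibroblasts stood at 13.5 to 15.5 and 12.6 to 14.7 TPM, those of leukocytes at 6.44 to 7.26 and 6.12 to 6.596 TPM, those of endothelium at 2.59 to 3.17 and 2.38 to 2.82 TPM, those of hepatocytes at 20.1 to 22.5 and 18.2 to 20.1 TPM, and those of goblet cells at 1.65 to 2.03 and 1.36 to 1.54 TPM, parental cells first.

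HNF4A itself checked the labels. The tables split the gene into 12 rows, HNF4A1 to HNF4A12, which share most of their sequence, so they were summed and left out of all fits. The sum was 31.9, 30.8 and 31.7 TPM in parental replicates 1, 2 and 3, and 407, 833 and 772 TPM in the same replicates of isoform 3. The means were 31.5 ± 0.59 and 671 ± 231 TPM (SD, n = 3), so HNF4A was 21.3-fold higher in the line and the groups did not overlap. Nearly all of it was in the HNF4A3 row, listed at 0 in the parental cells and at 405, 832 and 771 TPM in the line. Parental HNF4A was mostly in the HNF4A12 row, at 27.8, 27.3 and 28.7 TPM. That row was at 0, 0.498 and 0.221 TPM in the line, but how reads divide between near-identical rows is uncertain.

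**Figure D1:**
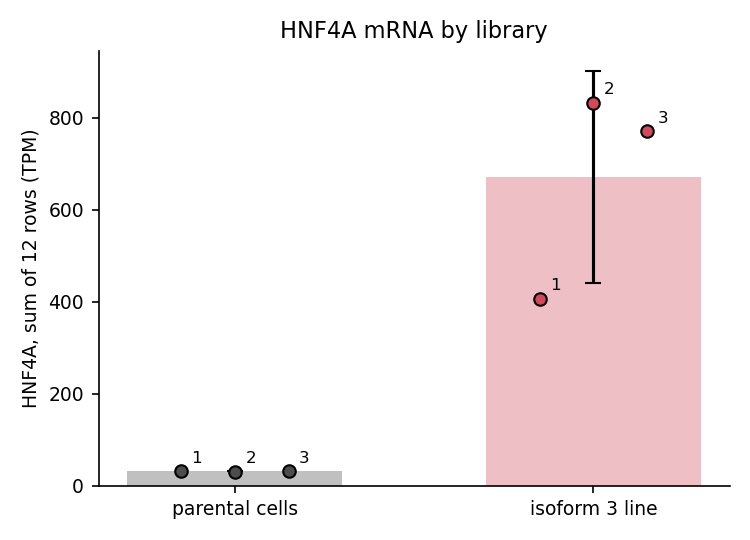
HNF4A mRNA (sum of 12 rows, TPM, linear axis) in the 3 parental and 3 isoform 3 libraries. Points are libraries with their replicate number, bars are means and error bars are SD. Replicate 1 of isoform 3, at 407 TPM, lies below replicates 2 and 3, at 833 and 772 TPM, and all 3 lie above the parental libraries.

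Replicate 1 of the isoform 3 line stood apart from replicates 2 and 3. It had 50.7% of their mean HNF4A, and across all tested genes it was closer to the parental libraries (root mean square differences of 0.305 to 0.326 on the log2 scale) than replicates 2 and 3 were (0.370 to 0.399). Replicates 2 and 3 differed from each other by 0.256. Fewer cells producing the isoform and less mRNA per cell cannot be told apart in such bulk libraries. The counts and the leading genes are therefore given with and without replicate 1.

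Testing was limited to the 15002 genes whose average over all 39 libraries reached 1 TPM, and 120 of them were called (0.8%) between isoform 3 and parental cells. A called gene had an adjusted p under 0.05 in limma and a difference of at least 1 on the log2(TPM + 1) scale. Of the 120, 97 were higher (0.647%) and 23 lower (0.153%) in isoform 3. Among them 93 were protein-coding, 77 higher and 16 lower, 10 were short RNA genes and 4 pseudogenes. Only 3 of the 39 libraries behind the filter were parental. Genes near 0 in the parental cells could enter through the lines, and genes high only in parental cells rarely could. The filter thus favours rises, and 30 of the 97 higher genes had a parental mean under 1 TPM. With no filter on low values 92 genes were higher and 26 lower. The groups of libraries overlapped in 0 of the 120, which is no added result, since the rule for a call favours separated groups. At the adjusted p alone, 1685 genes were higher (11.2%) and 2211 lower (14.7%). That split turned with the scaling, to 2450 higher and 1841 lower after median-of-ratios scaling, whereas the called genes then counted 107 higher and 21 lower. Without replicate 1 the calls were 136 higher (0.907%) and 45 lower (0.3%). Of the genes, 116 were called both ways, including all 93 protein-coding ones, and 65 only without replicate 1. In the authors' deposited table, 155 genes were higher and 49 lower at the same thresholds, set on the authors' own log2 fold change. Of the 120 genes called here 104 had an adjusted p there. Of the 104, 103 had the same sign there and passed at the adjusted p alone, including all 93 protein-coding ones. That adjusted p alone was met by 5023 of the 16791 genes that had one. The authors' table compares the same line and parental cells, so it is no independent check.

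Among the largest rises were 3 genes of lipid handling. CIDEC, whose protein drives the growth of lipid droplets (chr3:9866711-9880254, GRCh38), was nearly silent in the parental cells at 0.0344, 0.125 and 0.0643 TPM and reached 9.70, 17.8 and 14.5 TPM in isoform 3 replicates 1, 2 and 3. CIDEB, a family member that loads lipid onto lipoproteins in liver cells (chr14:24305096-24311430), went from 2.42, 2.20 and 2.22 TPM to 13.7, 32.3 and 30.6 TPM. ACSL5, which activates long-chain fatty acids (chr10:112374018-112428380), went from 0.526, 0.640 and 0.485 TPM to 7.37, 12.998 and 12.7 TPM. In all 3 genes the lowest library was replicate 1, and it still lay above every parental library. The differences were 3.77 ± 0.129, 2.93 ± 0.178 and 2.92 ± 0.1097 on the log2(TPM + 1) scale (SE), with limma adjusted p of 4.11e-19, 1.71e-13 and 2.09e-18, and 3.99, 3.31 and 3.16 without replicate 1. These were the only called genes among 18 tested of a list of 26 for fatty acid activation and lipid droplets. CIDEC and ACSL5, with parental means of 0.0745 and 0.550 TPM, entered the tested genes only through the lines. The count of 3 in 18 thus rests partly on the filter. Over all tested genes 0.647% were called higher. The median of the 18 was 0.085 (0.133 without replicate 1), beside -0.043 over all tested genes. By adjusted p alone 5 of the 18 were higher, the 3 called genes with AGPAT2 and PLIN3, beside 11.2% of all tested genes. Another 3 were lower, FABP5, HILPDA and DGAT1, a share near the 14.7% of all tested genes and no result about the list. After median-of-ratios scaling 7 of the 18 were higher and 1 lower. FABP5, a fatty acid carrier, stood at 838, 764 and 831 TPM in parental cells and at 705, 691 and 633 TPM in isoform 3.

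APOBEC1 encodes the deaminase that edits apolipoprotein B mRNA (chr12:7649400-7665903). It was listed at 0, 0.121 and 0 TPM in the parental cells and at 3.52, 8.44 and 9.05 TPM in isoform 3. SULT2B1, which adds sulfate to cholesterol and related sterols (chr19:48552075-48599425), went from 5.00, 6.22 and 5.37 TPM to 23.1, 48.9 and 48.1 TPM, a difference of 2.58 ± 0.150 (SE). SELENOP, the plasma carrier of selenium (chr5:42799880-42887392), went from 5.29, 5.48 and 6.17 TPM to 33.3, 76.9 and 83.3 TPM, a difference of 3.20 ± 0.197 (SE). The groups did not overlap in any of these genes, and replicate 1 was the lowest isoform 3 library in each. Without it the differences of APOBEC1, SULT2B1 and SELENOP were 3.23, 2.93 and 3.61. Of 12 tested genes of a conjugation list of 27, SULT2B1 and MGST2, a microsomal glutathione transferase, were called, and none was called lower. Over all tested genes 0.647% were called higher and 0.153% lower. MGST2 rose from 18.2, 21.8 and 19.7 TPM to 29.9, 57.1 and 54.8 TPM. Its difference of 1.16 ± 0.147 (SE) was 1.45 without replicate 1 and dropped below the minimum, to 0.99, when replicate 2 was left out.

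Genes of the absorptive surface rose too, but few of them. VIL1 encodes villin, which bundles actin in microvilli (chr2:218419092-218453295), and stood at 0.482, 0.683 and 0.497 TPM in parental cells and at 9.91, 20.7 and 23.4 TPM in isoform 3. Its difference was 3.53 ± 0.165 (SE), with a limma adjusted p of 3.99e-16, and 3.89 without replicate 1. USH1C, whose product harmonin links microvilli at their tips, went from 6.21, 6.63 and 6.46 TPM to 11.3, 16.9 and 18.6 TPM, a difference of 1.13 ± 0.126 (SE) that was 1.33 without replicate 1 and, at 0.996 without replicate 3, just under the minimum. These 2 were the called ones among 10 tested of 26 brush border genes, beside 0.647% of all tested genes called higher. VIL1, with a parental mean of 0.554 TPM, entered the tested genes only through the lines. EPS8, ESPN and EZR, which build or anchor actin bundles, were higher by adjusted p alone, with differences of 0.62, 0.44 and 0.18. Over all tested genes 11.2% were higher and 14.7% lower at that threshold. DPP4 and the carbonic anhydrase CA2 were lower by adjusted p alone, CA2 from 101, 106 and 101 TPM to 86.7, 61.2 and 60.8 TPM. The other 16 genes of the list stayed below the level for testing, with isoform 3 means of at most 0.949 TPM.

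A list of 24 genes that HNF4A is known to activate in liver and gut was mostly silent. Only 6 were tested and 3 were called, all higher: VIL1, LGALS4 and F10. Over all tested genes 0.647% were called higher. VIL1 and LGALS4, with parental means of 0.554 and 0.137 TPM, entered the tested genes only through the lines. The count of 3 in 6 thus rests partly on the filter and is no result about the list. LGALS4, the gut galectin 4 (chr19:38801671-38813364), went from 0.180, 0.0739 and 0.158 TPM to 1.27, 3.58 and 3.51 TPM. F10, coagulation factor X (chr13:113122814-113149529), went from 9.59, 8.60 and 9.58 TPM to 15.2, 28.4 and 26.5 TPM, a difference of 1.20 ± 0.143 (SE) with a limma adjusted p of 1.72e-07. Without replicate 1 LGALS4 and F10 differed by 2.00 and 1.47. The 18 untested genes had isoform 3 means of at most 1.03 TPM, and 2 of them were listed at 0 in all 6 libraries. F10 was also the only called one of 11 tested coagulation and plasminogen genes, beside the same share of all tested genes.

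Other genes with the largest rises came from no single list. C11orf86 (chr11:66975277-66977004) had the largest difference, 4.08 ± 0.143 (SE), from 0.300, 0.139 and 0.213 TPM to 13.8, 25.9 and 21.0 TPM. IL32, a cytokine (chr16:3065297-3082192), went from 0.446, 0.524 and 0.304 TPM to 14.5, 28.6 and 22.5 TPM, a difference of 3.96 ± 0.154 (SE). MYO15B, a myosin-related gene (chr17:75588058-75626501), went from 1.66, 1.59 and 1.78 TPM to 22.8, 50.8 and 49.99 TPM. All of these groups were far apart, with replicate 1 the lowest of the line, and without it the differences were 4.32, 4.21 and 4.26. CLRN3 (a clarin), PRAP1 (a secreted gut protein) and HKDC1 (a hexokinase-domain protein) rose by 3.48, 2.99 and 2.66 from parental means under 1 TPM. The pseudogene AQP7P3 rose by 3.22, and reads of related aquaporin genes may be shared with it. The long non-coding LINC02313 was at 4.13, 7.08 and 5.24 TPM in isoform 3, and all parental libraries listed it at 0.

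**Figure D2:**
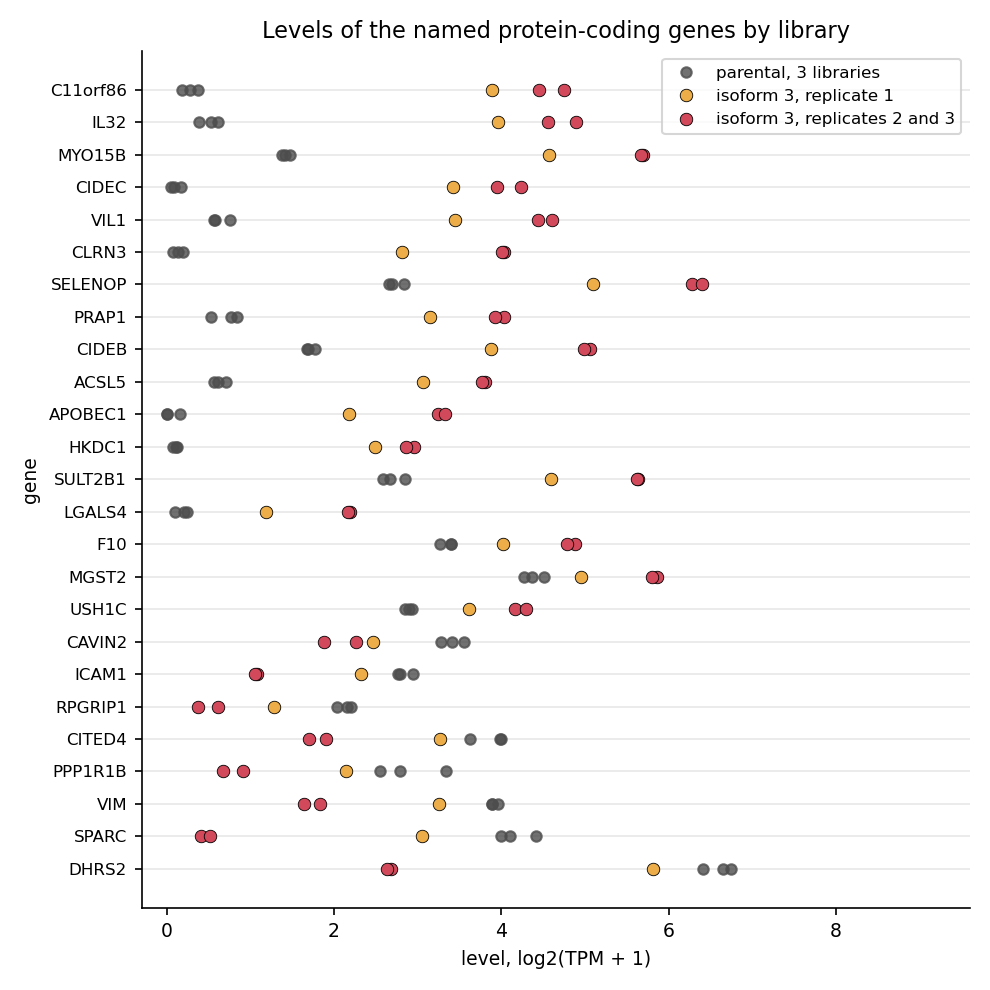
Level of each named protein-coding gene that was called, as log2(TPM + 1), in every library. Grey points are the 3 parental libraries, the yellow point is isoform 3 replicate 1 and red points are replicates 2 and 3. For each gene replicate 1 lies between the parental libraries and replicates 2 and 3.

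The 250 bases before and 50 after the annotated start (RefSeq, GRCh38.p14) were searched on both strands for CAAAGTCCA and CAAAGGTCA, spellings of the element that HNF4 receptors bind. Of the 97 called higher genes, 65 had an entry in the promoter table, with 95 windows. Of these windows 10 (10.5%), of 10 genes, held CAAAGTCCA and 0 held CAAAGGTCA. None of 19 windows of 14 called lower genes held either. Among all tested genes 0.6% of 15051 windows held one of them, and among all promoters 0.79% of 35116. The windows of the 4 of these genes with the largest rises, and of F10 from the target list, are printed because they hold the element, in lower case, 5′ to 3′ in the direction of the gene, with the match in capitals (TGGACTTTG is CAAAGTCCA on the other strand).
CIDEB, chr14:24307928-24308227, minus strand: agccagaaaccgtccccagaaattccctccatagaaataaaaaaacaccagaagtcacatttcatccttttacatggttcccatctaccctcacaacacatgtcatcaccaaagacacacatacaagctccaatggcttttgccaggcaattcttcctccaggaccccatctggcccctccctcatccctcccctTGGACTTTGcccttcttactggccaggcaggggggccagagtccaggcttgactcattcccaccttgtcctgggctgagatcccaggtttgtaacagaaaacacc
APOBEC1, chr12:7665859-7666158, minus strand: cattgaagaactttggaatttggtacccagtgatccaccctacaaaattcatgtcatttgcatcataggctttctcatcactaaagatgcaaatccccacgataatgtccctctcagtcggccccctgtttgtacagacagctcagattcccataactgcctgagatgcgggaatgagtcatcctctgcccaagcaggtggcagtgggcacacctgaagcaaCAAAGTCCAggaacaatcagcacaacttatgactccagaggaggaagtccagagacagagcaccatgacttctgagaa
SDCBP2, chr20:1313624-1313923, minus strand: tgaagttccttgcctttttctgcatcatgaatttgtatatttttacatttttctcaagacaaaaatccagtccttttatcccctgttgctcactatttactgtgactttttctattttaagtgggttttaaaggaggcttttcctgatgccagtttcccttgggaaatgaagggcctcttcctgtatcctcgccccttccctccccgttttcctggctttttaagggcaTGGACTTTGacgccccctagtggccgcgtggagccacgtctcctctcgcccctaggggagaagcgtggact
GPR35, chr2:240605180-240605479, plus strand: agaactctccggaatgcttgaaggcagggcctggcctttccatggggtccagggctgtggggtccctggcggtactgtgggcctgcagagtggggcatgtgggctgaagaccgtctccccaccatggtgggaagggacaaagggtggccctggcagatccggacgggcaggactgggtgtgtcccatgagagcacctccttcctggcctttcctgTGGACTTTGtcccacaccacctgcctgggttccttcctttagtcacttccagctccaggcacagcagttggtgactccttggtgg
F10, chr13:113122549-113122848, plus strand: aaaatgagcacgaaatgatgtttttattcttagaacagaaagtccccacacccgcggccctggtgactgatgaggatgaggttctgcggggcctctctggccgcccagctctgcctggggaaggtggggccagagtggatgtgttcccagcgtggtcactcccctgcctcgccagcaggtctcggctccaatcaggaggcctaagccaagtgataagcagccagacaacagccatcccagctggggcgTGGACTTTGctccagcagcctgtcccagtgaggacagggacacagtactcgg
The match started 55 bases before the annotated start in CIDEB, 28 in APOBEC1, 21 in SDCBP2, 35 in GPR35 and 2 in F10. A gene can have several annotated starts, and those used here for CIDEB and SDCBP2 lie inside the span of the gene. Levels are per gene, so which start was in use is not known. SDCBP2, a syntenin-like adaptor, went from 0.322, 0.552 and 0.297 TPM to 2.88, 6.24 and 6.51 TPM, and GPR35, a G protein-coupled receptor of gut, from 1.49, 1.247 and 1.38 TPM to 4.76, 8.24 and 8.82 TPM. The others were MISP, CD68, PIPOX, RAB17 and LBX2-AS1. Read the other way, 46 tested genes had CAAAGTCCA in a window. Of these, 10 were called higher, 0 were called lower and 27 did not pass the adjusted p, with a median of 0.107. For the 41 genes with CAAAGGTCA, 0 were called and the median was 0.068. A match describes letters in a window and is neither a measured binding site nor a cause of a change.

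Among the 23 genes called lower, the largest differences were in DHRS2 and SPARC. DHRS2, a short-chain dehydrogenase (chr14:23630115-23645639), stood at 83.9, 99.3 and 106 TPM in the parental cells and at 55.4, 5.42 and 5.21 TPM in isoform 3. SPARC, a matrix-associated glycoprotein (chr5:151661096-151687165), stood at 14.97, 16.3 and 20.4 TPM and then at 7.27, 0.326 and 0.426 TPM. VIM, the intermediate filament vimentin (chr10:17228259-17237593), stood at 13.8, 14.6 and 13.9 TPM and then at 8.56, 2.56 and 2.13 TPM. In each, replicates 2 and 3 were far below the parental libraries and replicate 1 lay in between. The differences were -2.89 ± 0.407, -2.85 ± 0.338 and -1.67 ± 0.218 on the log2(TPM + 1) scale (SE), and -3.94, -3.72 and -2.18 without replicate 1. With only the 6 libraries in the fit, DHRS2 missed the threshold narrowly, with a limma adjusted p of 0.05001.

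SPARC, VIM and CAVIN2, a caveola coat protein, were the 3 called genes of 13 tested in a list of 25 mesenchymal and matrix genes. All were lower, beside 0.153% of all tested genes called lower. CAVIN2 stood at 9.66, 8.70 and 10.8 TPM and then at 4.54, 2.69 and 3.79 TPM, a difference of -1.21 ± 0.170 (SE). By adjusted p alone FN1, THBS1 and S100A4 were also lower and CAV2 was higher, beside 14.7% lower and 11.2% higher over all tested genes. The list median was -0.045 (-0.16 without replicate 1), beside -0.043 (-0.039 without it) over all tested genes, so the list as a whole did not move with all replicates. After median-of-ratios scaling 3 genes of the list were higher and 6 lower, with a median of -0.009. ICAM1, a leukocyte adhesion receptor (chr19:10270835-10286615), fell from 5.89, 6.68 and 5.80 TPM to 3.99, 1.12 and 1.08 TPM, a difference of -1.34 ± 0.171 (SE). Without replicate 1 CAVIN2 and ICAM1 differed by -1.35 and -1.76. ICAM1 was the called lower gene of 10 tested NF-kB response genes, and IL32 the called higher one. Over all tested genes 0.153% were called lower and 0.647% higher. IL32, with a parental mean of 0.424 TPM, entered the tested genes only through the lines. NFKBIA, NFKB2, RELB, TNFAIP2 and TNFAIP3 were lower by adjusted p alone, and SOD2, a mitochondrial superoxide dismutase, was higher, by 0.29. At that threshold 14.7% of all tested genes were lower and 11.2% higher. PPP1R1B, an inhibitor of protein phosphatase, CITED4, a transcriptional coactivator, and RPGRIP1, a cilium protein, differed by -1.65, -1.58 and -1.37, and by -2.10, -2.07 and -1.63 without replicate 1. Non-coding genes called lower included LOC107986892, SNORA79B and TMEM132D-AS1, at -2.10, -1.89 and -1.78, and SCARNA26B, listed at 0 in every isoform 3 library. The first of these lost its call without replicate 2, as did SNORA79B, and SCARNA26B lost it without parental replicate 1 or 2. In the authors' deposited table SCARNA26B, LOC107986892 and SNORA79B had log2 fold changes of -0.07, -0.15 and -0.26, with no adjusted p. Those are the authors' own estimates and not differences of log2(TPM + 1), so the sizes cannot be compared directly.

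**Figure D3:**
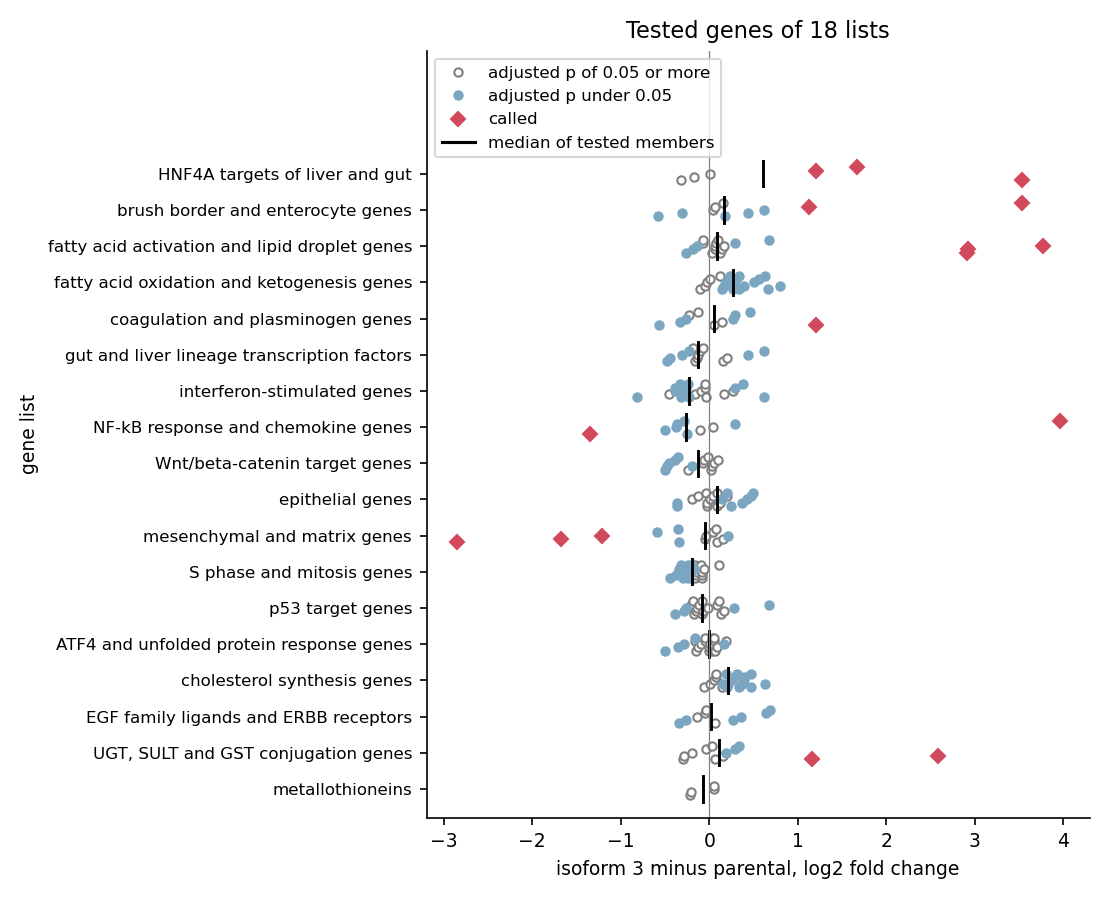
Difference between isoform 3 and parental cells, on the log2(TPM + 1) scale, of each tested gene of 18 lists. Red diamonds are called genes, blue points passed the adjusted p alone, open points did not pass it, and black ticks are list medians. Fatty acid oxidation genes lie mostly to the right of 0 without any diamond, and S phase and mitosis genes mostly to the left.

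In 3 further lists no gene was called, but part of the members passed the adjusted p. Of 22 tested fatty acid oxidation and ketogenesis genes, 17 were higher and 0 lower by adjusted p alone, with a median of 0.27 (0.33 without replicate 1), against the 11.2% of all genes that were higher. ETFDH and ETFA, which pass electrons from fatty acid oxidation to the respiratory chain, HADHB, a subunit of the trifunctional enzyme, and SLC25A20, the carnitine carrier, led with differences of 0.80, 0.57, 0.63 and 0.66. ETFA went from 225, 224 and 226 TPM to 290, 358 and 361 TPM. The carnitine palmitoyltransferases CPT1A and CPT2, at 0.12 and -0.05, did not pass. Without replicate 1 the count was again 17, and it was 18 after median-of-ratios scaling.

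Of 22 tested cholesterol synthesis genes, 13 were higher and 0 lower by adjusted p alone, beside 11.2% of all tested genes higher. Their median was 0.21 (0.26 without replicate 1). MSMO1, EBP and DHCR7, late enzymes of the pathway, differed by 0.63, 0.48 and 0.48, and DHCR7 went from 165, 172 and 161 TPM to 221, 243 and 232 TPM. The count was 16 without replicate 1 and 18 after scaling. Of 30 S phase and mitosis genes, 14 were lower and 0 higher, with a median of -0.20 (-0.28 without replicate 1), beside the 14.7% of all genes that were lower. TOP2A, the topoisomerase of dividing cells, went from 108, 118 and 116 TPM to 89.7, 81.1 and 80.3 TPM, and the replication clamp PCNA from 570, 582 and 549 TPM to 535, 466 and 442 TPM. That count was 21 without replicate 1 and 11 after scaling, and 1 gene was then higher.

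In the remaining lists 0 genes were called, and their counts by adjusted p alone stand beside 11.2% higher and 14.7% lower over all tested genes. Of 21 tested interferon-stimulated genes 3 were higher and 9 lower by adjusted p alone, and IFI6 was called lower only without replicate 1, at 24.6, 28.6 and 29.3 TPM against 21.2, 14.6 and 11.3 TPM. Of 14 tested Wnt/beta-catenin targets 6 were lower and 0 higher, among them AXIN2 and NOTUM, feedback inhibitors of the pathway. Of 14 tested lineage transcription factors 2 were higher, PPARG and PPARA, and 4 lower, SOX9, FOXA1, GATA6 and CDX2. PPARG went from 11.7, 10.9 and 11.2 TPM to 16.6, 17.999 and 19.2 TPM. Of 20 epithelial genes 7 were higher and 2 lower, of 19 p53 targets 2 and 3, of 24 genes of the ATF4 and unfolded protein responses 1 and 4, and of 10 EGF family genes 4 and 2. The shares of the p53 and the ATF4 lists lay near those over all genes and are no result about these lists. The same holds for the higher interferon genes and lineage factors, and for the lower epithelial and EGF family genes. CDKN1A, the cell cycle inhibitor p21, went from 106, 105 and 100.1 TPM to 139, 193 and 173 TPM, a difference of 0.68. The receptor ERBB3 and its family's ligand AREG differed by 0.68 and 0.64. None of 4 tested metallothioneins passed the adjusted p, and the summed level was 1449 to 1948 TPM and 965 to 2032 TPM.

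Replicate 1 carried about the same share of the change in most genes. For the 181 genes called without it, its distance from the parental mean in TPM was a median of 45.8% of that of replicates 2 and 3 (interquartile range 39.1% to 54.8%), and 168 of them lay from 25% to 75%. Its HNF4A mRNA was 50.7% of the mean of replicates 2 and 3, a plain ratio with no parental level taken off. The 181 genes were chosen by their change in replicates 2 and 3, which favours a low share for replicate 1. The median share was 45.0% for the 136 higher and 47.1% for the 45 lower genes. The same measure for replicate 2, over 98 genes called without it, was 137%, and for replicate 3, over 95 genes, 129%, each set against a pair that includes replicate 1. Whether the HNF4A level set these shares was not tested. The genes called only with replicate 1 were 4 short RNA genes or pseudogenes, RNU6-431P, SNORA71E, SNORA31 and HNRNPA3P6. The largest differences among those called only without it were also non-coding, in SNORD3K, SNORD51, TRS-GCT5-1, SNORA51 and LOC107985551, but 52 of these 65 genes were protein-coding.

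**Figure D4:**
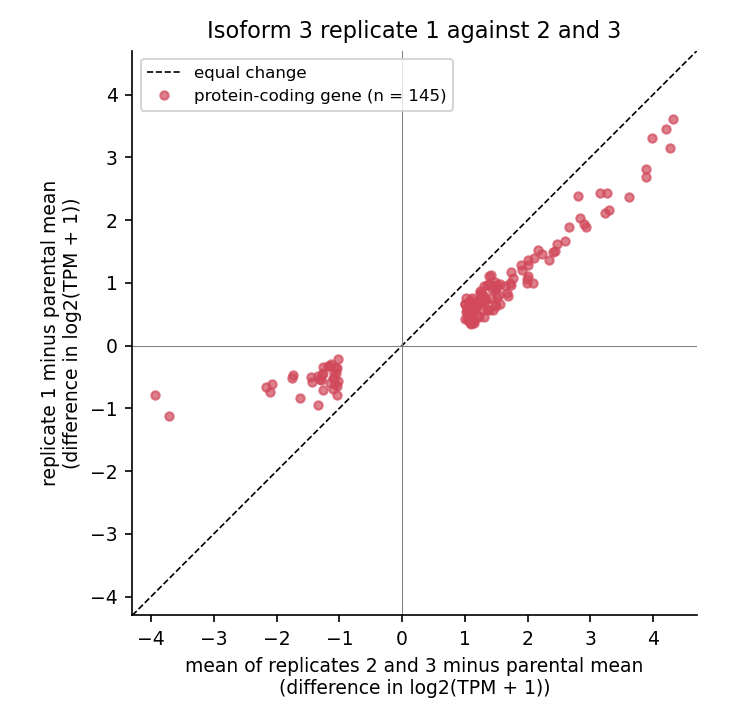
Difference from the parental mean in isoform 3 replicate 1 (vertical axis) against that in the mean of replicates 2 and 3 (horizontal axis), on the log2(TPM + 1) scale, for the 145 protein-coding genes called without replicate 1. The dashed line marks equal change. Points lie on the same side of 0 as in replicates 2 and 3 but nearer to 0.

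Isoform 3 was then set directly against the lines of isoforms 1, 6 and 9 in the same fit. Those lines also carried HNF4A fused to GFP, and their doxycycline, induction time, blasticidin and hygromycin B were those of the isoform 3 line. HNF4A was at 782 ± 21.1 TPM in isoform 1, 1071 ± 41.4 TPM in isoform 6 and 948 ± 130 TPM in isoform 9 (SD, n = 3), beside 671 ± 231 TPM in isoform 3. The part of these levels in the differences was not tested, and each line is again a single line.

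Against isoform 1, which differs by its full C-terminus, 41 genes were higher (0.273%) and 176 lower (1.17%) in isoform 3. ACSL5 was at 110, 93.9 and 111 TPM in isoform 1 and at 7.37, 12.998 and 12.7 TPM in isoform 3, a difference of -3.17 ± 0.1097 (SE). CYP17A1, a steroid hydroxylase, was at 27.9, 17.1 and 26.6 TPM against 0.851, 2.33 and 2.54 TPM, and VTN, the plasma protein vitronectin, at 11.5, 8.82 and 13.1 TPM against 0.229, 0.764 and 0.493 TPM. C11orf86, IL32, CIDEC and APOBEC1 differed from isoform 1 by -2.27, -2.66, -2.65 and -2.64, and all were called. Without replicate 1 these differences were -2.03, -2.40, -2.43 and -2.27, and that of ACSL5 was -2.93. SELENOP and CLRN3, by contrast, were not called: SELENOP was at 71.1, 73.3 and 77.1 TPM in isoform 1, within the range of isoform 3, and the difference of -0.30 ± 0.197 (SE) had a limma adjusted p of 0.243. SULT1A3 also ranked among the lowest, but its isoform 1 libraries spread from 5.26 to 72.5 TPM and the call was lost without isoform 3 replicate 1. The 4 highest in isoform 3 were the short RNA genes SNORA5B, SNORD150, SNORA9B and TRNF. Without replicate 1, 35 genes were higher and 147 lower. ICAM1 was then called lower in isoform 3 than in isoform 1, and DHRS2 and SPARC, higher in isoform 3 with all replicates at 1.18 and 1.13, were at 0.12 and 0.26 and not called.

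Against isoform 6, with the same short C-terminus, 92 genes were higher (0.613%) and 13 lower (0.0867%) in isoform 3. CIDEC stood at 0.0990, 0.0339 and 0.0747 TPM in isoform 6, close to the parental level, and IL32 at 0.437, 0.784 and 0.784 TPM, so isoform 3 was higher by 3.77 and 3.74 (4.00 and 3.99 without replicate 1). MYO15B and C11orf86 were higher by 3.73 and 3.57. At the other end RPGRIP1 was at 13.1, 13.8 and 13.02 TPM in isoform 6, VIM at 27.7, 32.6 and 31.5 TPM and FGF13, a member of the fibroblast growth factor family that acts inside the cell, at 8.17, 8.67 and 8.19 TPM, all above the parental cells, whereas isoform 3 was below them. SUCNR1, the succinate receptor, was at 14.5, 15.9 and 17.0 TPM in isoform 6 and at 3.19, 1.98 and 3.22 TPM in isoform 3. Lower in both lines were DHRS2, at 9.66, 10.2 and 10.1 TPM in isoform 6, and ICAM1, at 2.01, 1.99 and 1.70 TPM there. For ICAM1 isoform 3 differed from isoform 6 by -0.05 ± 0.171 (SE), with a limma adjusted p of 0.886. That difference was -0.47 without replicate 1 and was not called either way. Without replicate 1, 121 genes were higher and 26 lower.

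Against isoform 9, with the short C-terminus and the P2 N-terminus, 65 genes were higher (0.433%) and 19 lower (0.127%). CLRN3 was at 0.522, 1.10 and 1.27 TPM in isoform 9 and CIDEB at 3.35, 2.83 and 3.64 TPM, so isoform 3 was higher by 2.67 and 2.55, and VIL1, at 2.43, 2.51 and 3.54 TPM, was 2.24 below isoform 3. F10 was at 5.27, 6.12 and 7.45 TPM in isoform 9, and isoform 3 was higher by 1.71 ± 0.143 (SE), or 1.98 without replicate 1. C11orf86, ACSL5 and APOBEC1 did not differ past the threshold: ACSL5 was at 11.2, 12.5 and 12.9 TPM in isoform 9, and the difference of -0.17 ± 0.1097 (SE) had a limma adjusted p of 0.296. ICAM1 was at 5.76, 5.89 and 5.79 TPM in isoform 9, at the parental level, and the difference of isoform 3 was -1.28 ± 0.171 (SE), or -1.70 without replicate 1. The extremes of this contrast also held short RNA genes and non-coding genes, TRNV higher and LOC107986892, SNORA2A, SNORA31 and RN7SL396P lower. Without replicate 1, 90 genes were higher and 20 lower, and none of those 4 lower ones was called.

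**Figure D5:**
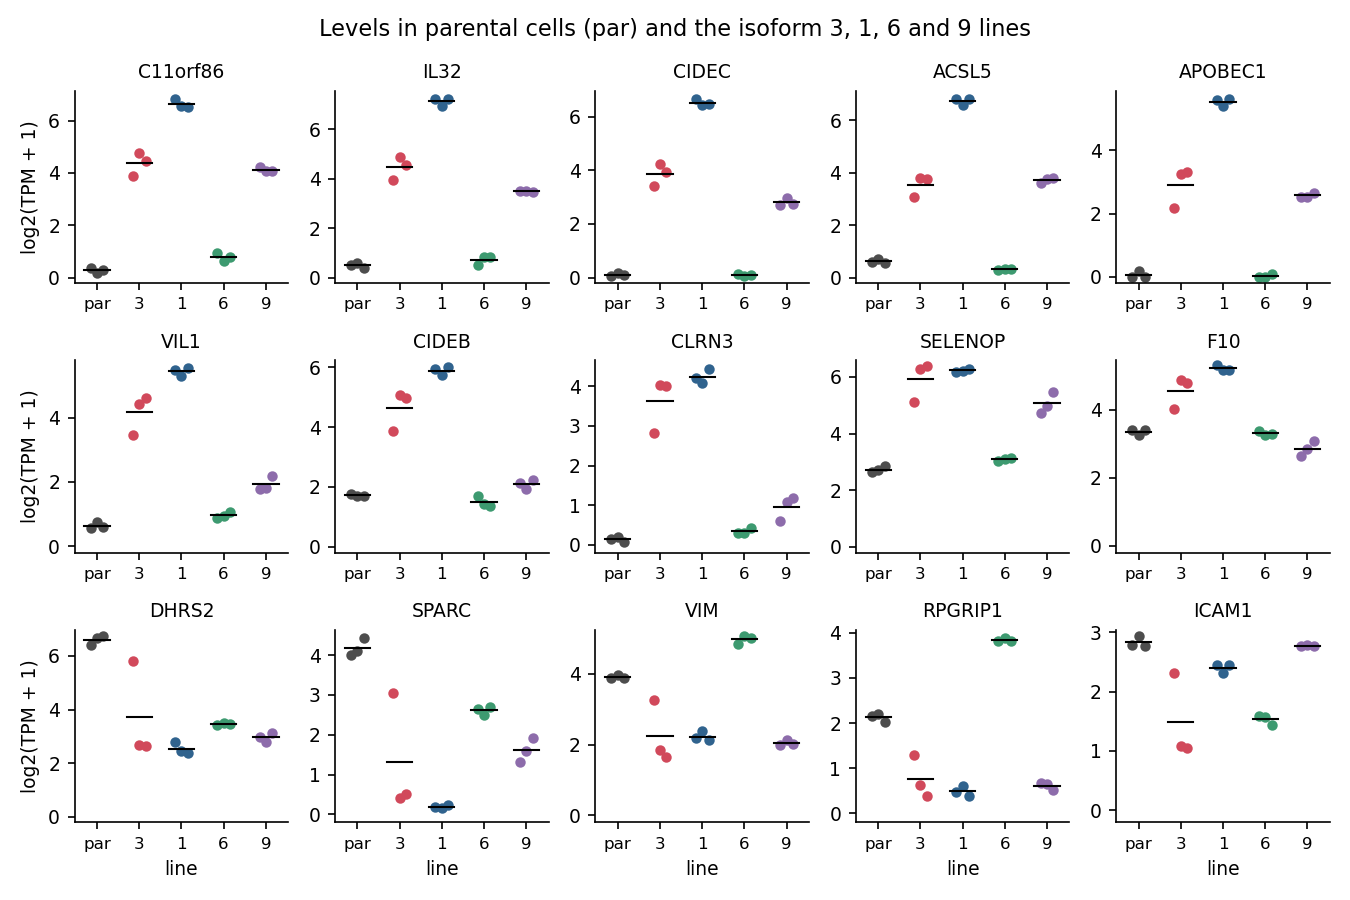
Level of 15 named genes, as log2(TPM + 1), in the libraries of the parental cells (par) and of the lines of isoforms 3, 1, 6 and 9. Points are libraries and black lines are means of 3. In the upper row isoform 3 lies between the parental cells and isoform 1, and isoform 6 lies near the parental cells. VIM and RPGRIP1 are above the parental cells in isoform 6 and below them in isoforms 3, 1 and 9.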

How the data were processed

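Per the submitters' processing notes, Trimmomatic 0.36, FastQC 0.11.5, kallisto 0.44.0, DESeq2 1.22.2 and the build GRCh38.p12 were used, and the notes give them no order. The authors deposited 13 tables of 45446 rows with TPM per library. Per the file headers, the authors' own comparison adds mean signal, log2 fold change, its standard error (a score) and p-values. Those columns entered no fit.

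The 12 HNF4A rows were left out. Linear models were fitted on log2(TPM + 1) in R 4.3.3, using lmFit and a trended eBayes of limma 3.58.1, with all 39 libraries and 13 groups in 1 fit, and p-values were adjusted by Benjamini-Hochberg over the 15002 tested genes of each comparison. The scale understates changes of low genes. The depth behind TPM is unknown, so no counting interval was computed. Coordinates come from GENCODE 29 by gene name.

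Named genes were the 15 largest rises and 10 largest falls called with and without replicate 1, called list members, the 5 largest called only one way, and the 4 highest and lowest per line contrast. Comparisons, lists and rules were chosen with earlier results of these data known. Of the alternatives, 3 that join the removal of replicate 1 to another setting were chosen after seeing the data.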

Additional observations from a re-analysis of the deposited data

Results flagged for a closer look

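Isoform 3 differed from other lines in direct contrasts of the fitted groups: 217 genes were called against isoform 1, 105 against isoform 6 and 84 against isoform 9. In 3 genes the change from the parental cells was called in opposite directions in the lines of isoforms 3 and 6. The difference was -2.73 for VIM, -3.08 for RPGRIP1 and -2.53 for FGF13 on the log2(TPM + 1) scale, with limma adjusted p of 6.69e-11, 2.71e-17 and 3.65e-15, and -3.24, -3.34 and -2.77 without isoform 3 replicate 1. These 3 genes were lower than in all parental libraries in 3 of 3 isoform 3 libraries. The falls of VIM and RPGRIP1 were not particular to isoform 3. Against the parental cells VIM differed by -1.69 in isoform 1 and -1.87 in isoform 9, and RPGRIP1 by -1.64 and -1.51.

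The HNF4A2 row, which entered no fit, was at 1.15, 0.62 and 0.42 TPM in isoform 3 replicates 1, 2 and 3, and every parental library listed it at 0. Reads can be divided between this row and the near-identical HNF4A3 row. No group has enough libraries for a test of outliers.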

How the results depend on the processing

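Leaving out 1 replicate at a time gave 95 to 181 called genes against parental cells (120 with all), 182 to 254 against isoform 1, 91 to 147 against isoform 6 and 69 to 110 against isoform 9. The 181 came from leaving out isoform 3 replicate 1. A pseudocount of 0.1 gave 199, 379, 179 and 156 genes in that order, and no minimum fold change 3896, 6166, 3237 and 2812. Array weights gave 231 against parental cells, 209 against isoform 6 and 244 against isoform 9, but their estimation did not reach its convergence tolerance. A filter at 5 TPM, which tests fewer genes, gave 137 against isoform 1 and 42 against isoform 9. Without replicate 1, the count against parental cells was 187 with only the libraries of the 2 groups, 189 with median-of-ratios scaling and 297 with a pseudocount of 0.1. Apart from the filter, the cause of these shifts was not tested.

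Same-numbered parental and isoform 3 libraries deviated with correlations of 0.03, 0.00 and 0.06, so the numbers were not taken to pair them, and a replicate block gave 120 genes. Of 40 named genes, 25 kept direction and call under every alternative that gave a value, among them 22 of 25 protein-coding ones, and 0 values reversed. The exceptions among these were DHRS2, MGST2 and USH1C. Unknown depth limits what can be said of genes below about 1 TPM.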

Other observations

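Some called genes outside the lists were picked out after their values were seen. NR1I3, a nuclear receptor that senses drugs, was at 0.904, 1.01 and 0.737 TPM in parental cells and at 2.91, 6.33 and 6.65 TPM in isoform 3, a difference of 1.68 ± 0.165 (SE). CREB3L3, a liver and gut transcription factor of lipid metabolism, went from 0.251, 0.182 and 0.198 TPM to 2.43, 6.36 and 4.78 TPM. BAAT, which joins bile acids to amino acids, went from 0.501, 0.297 and 0.248 TPM to 1.91, 4.33 and 4.53 TPM, and the efflux pump ABCG2 from 2.10, 2.19 and 1.85 TPM to 4.698, 6.74 and 7.77 TPM. In all 4 genes replicate 1 was the lowest isoform 3 library and lay above the parental ones, and all were called with and without it.

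DHRS3, a retinal reductase, rose by 2.29 ± 0.147 (SE), from 11.5, 13.6 and 15.9 TPM to 45.3, 92.8 and 82.3 TPM. The secreted guidance factors SEMA3B and SEMA3C rose by 2.58 and 1.10. JUN, KLF6 and ZFP36 rose by 1.11, 1.00 and 1.37, with JUN at 16.1, 19.5 and 17.5 TPM and then at 33.0, 45.0 and 41.1 TPM. FGFBP1, a carrier of fibroblast growth factors, fell by 1.31, from 31.5, 36.9 and 30.0 TPM to 23.2, 10.5 and 7.91 TPM. MLXIPL, a glucose-responsive transcription factor, was called only without replicate 1, at 0.88 with it and 1.13 without.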
